A study of Mus musculus with 21 samples.

Results

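Rbm3 and Cirbp, the genes of the cold-inducible RNA-binding proteins RBM3 and CIRBP, were picked by symbol, as 2 of the 53738 gene symbols measured by bulk RNA-seq of mouse quadriceps muscle. All mice were C57/Bl6 wild-type males from a commercial breeder, between 22 and 26 weeks old when sacrificed. The Sedentary group did no exercise. Mice were acclimatized to the treadmill before testing, and a subset also ran a ramp test of peak oxygen uptake. As the acute bout, untrained mice ran an incremental treadmill test to exhaustion and were sacrificed 0 h, 6 h or 72 h later. Trained mice did the same after 12 weeks of access to a running wheel, which started at an age of 12 weeks. Each of these 7 groups had 3 libraries, 21 in all, and no group of trained mice without the acute bout was analysed here. Comparisons of untrained with Sedentary muscle ask how an exhaustive bout moved the transcripts of these genes. In trained against Sedentary muscle, the bout and the 12 weeks of wheel access cannot be told apart. Trained and untrained muscle were also compared at each time. There, a lasting effect of training and a changed response to the bout cannot be told apart.

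Both proteins carry a single RNA recognition motif followed by a stretch rich in arginine and glycine. They are known for rising when cells or tissues cool by a few degrees and falling when these warm, the opposite of the heat shock proteins. RBM3 promotes translation and is known for effects on muscle mass and on synapses, while CIRBP binds stress transcripts and shuttles to stress granules. Muscle warms during running, but no temperature and no clock time of sacrifice was given in the sources used here.

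Levels are given as TPM, a transcript abundance corrected for length and scaled to the same total in each library. TPM keep no sequencing depth, so replicate error is the sole measure of precision. Untrained 0 h replicate 1 and Trained 0 h replicate 1 held identical values for all 53738 symbols, of which 25037 were above 0. The table thus holds 20 distinct libraries. For both genes, the log2 fold changes at 0 h against Sedentary muscle are given with and without the shared one. The labelled tissue was checked by the summed level of 7 skeletal muscle markers, which lay between 49864 and 67441 TPM in a library. Genes of the mitochondrial genome took between 37.7% and 40.6% of the TPM at 0 h, between 42.2% and 46.9% in Sedentary muscle and between 45.7% and 48.0% in trained muscle at 6 h and 72 h, and results are therefore also given after rescaling.

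Rbm3 lies on chromosome X at 8004213 to 8012119 on the minus strand of GRCm39 and Cirbp on chromosome 10 at 79997069 to 80008626 on the plus strand. Their canonical transcripts have 6 and 7 exons. The start of Rbm3 overlaps Rbm3os, a long non-coding RNA on the opposite strand, and Cirbp overlaps the non-coding Gm67261 and Gm67271, which have no row in the table. The library kit does not mark strand, so reads of these pairs cannot be told apart where they overlap. Rbm3os averaged 2.76 TPM and reached at most 3.91 TPM in a library.

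The control region of Cirbp is shown because it holds the letters TCCCCGCC, known from the mouse gene as a mild cold response element that the factor Sp1 can bind. Of the 2 genes, 1 had an entry in the RefSeq promoter table (GRCm38.p6), the gene Cirbp with 2 start sites. The 250 bases before the first of them, chr10:80167589-80167838 on the plus strand, read as follows, with that element in capitals.
Cirbp: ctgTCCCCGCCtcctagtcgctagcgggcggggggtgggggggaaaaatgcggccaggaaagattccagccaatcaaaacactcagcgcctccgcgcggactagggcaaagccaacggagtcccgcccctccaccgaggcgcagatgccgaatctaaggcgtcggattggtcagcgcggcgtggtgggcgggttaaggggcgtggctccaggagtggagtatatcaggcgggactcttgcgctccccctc
The element spans positions -247 to -240 relative to the start site. Counting both strands, 5.38% of 32851 promoter windows of 300 bases held it, and the window of the other Cirbp start site did not. The same first window held 3 GC boxes (GGGCGG, found in 35.7% of windows) and 2 CCAAT boxes (CCAAT, found in 37.4%), and the other held 4 GC boxes. No CACGTG, the E-box that clock factors bind, was found in either window, against 7.15% of all windows. A match of letters is a description and not a binding site.

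Rbm3 averaged 35.5 TPM over the libraries, above 88.3% of 9678 tested protein-coding nuclear genes, and Cirbp averaged 16.03 TPM, above 75.8% of them. Within groups the SD on the log2 scale was 0.16 for Rbm3 and 0.21 for Cirbp, compared with a median of 0.14 over those genes. Both genes were thus well expressed and somewhat more variable than the typical gene.

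Cirbp was lower than in Sedentary muscle directly after exercise, in both untrained and trained mice. In Sedentary muscle the 3 libraries held 20.8, 23.4 and 20.9 TPM. In Untrained 0 h muscle they held 13.9, 12.1 and 12.1 TPM, the first being the shared library. All of these lay well below the lowest Sedentary library. Group means were 21.7 ± 1.49 TPM (SD, n = 3) in Sedentary and 12.7 ± 1.06 TPM (SD, n = 3) in Untrained 0 h muscle, or 12.1 TPM in the latter without the shared library. On the log2(TPM + 0.5) scale Cirbp fell by 0.75 (SE 0.15, 95% interval -1.08 to -0.42), a change of -40.6%, with an adjusted p of 0.00617 in limma. Calls required a fold of at least 1.5 besides an adjusted p under 0.05, and by this rule 0.618% of the 11819 tested genes fell in this comparison. Without the shared library the log2 fold change was -0.82 with an adjusted p of 0.0178, and the call held.

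In Trained 0 h muscle Cirbp held 13.9, 11.2 and 17.0 TPM, again with the shared library first. These libraries were spread more widely but none reached the Sedentary ones. The fall was 0.63 on the log2 scale (SE 0.15, 95% interval -0.95 to -0.30), with an adjusted p of 0.0183 in limma, in a comparison where 0.347% of genes fell. This call was lost without the shared library, at the same log2 fold change of -0.63 and an adjusted p of 0.0585, without Trained 0 h replicate 2 (log2 fold change -0.48, adjusted p 0.0795) and without Sedentary replicate 2 (-0.57, adjusted p 0.0851). Since Untrained 0 h and Trained 0 h share a library, their results are not independent of each other.

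At 6 h Cirbp stayed below the Sedentary range without reaching the fold threshold. Untrained 6 h libraries held 15.7, 16.8 and 11.6 TPM, and Trained 6 h libraries held 16.5, 15.4 and 13.8 TPM. Neither group overlapped Sedentary muscle. The log2 fold changes were -0.56 (SE 0.15, adjusted p 0.0306) in untrained and -0.50 (SE 0.15, adjusted p 0.0499) in trained muscle, by limma. The shares of all genes called lower in these comparisons were 0.888% and 1.44%, and 2.79% and 4.66% were lower at an adjusted p under 0.05 without the fold threshold. The untrained value met both thresholds under 3 other scalings, without Untrained 6 h replicate 1 (-0.61, adjusted p 0.0328) and without replicate 2 (-0.66, adjusted p 0.0276). Without replicate 3, the lowest library, it was -0.40 with an adjusted p of 0.150, and without any 1 Sedentary library the adjusted p lay between 0.0575 and 0.113. The trained value had an adjusted p above 0.05 when any of its 6 libraries was left out, between 0.0737 and 0.164. With the shared 0 h library left out of the limma fit, the adjusted p was 0.0435 in untrained and 0.0637 in trained muscle.

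At 72 h Cirbp was not called in either group. Untrained 72 h libraries held 22.6, 17.3 and 16.1 TPM, so that replicate 1 lay within the Sedentary range. Trained 72 h libraries held 14.2, 14.8 and 16.3 TPM, all below it. The log2 fold changes were -0.22 (SE 0.15, adjusted p 0.933) in untrained and -0.51 (SE 0.15, adjusted p 0.184) in trained muscle, and by limma 0% and 0.110% of all genes were called lower, or 0% and 0.161% by adjusted p alone. With any 1 library left out the untrained value lay between -0.37 (without Untrained 72 h replicate 1) and -0.13 (without replicate 3), and neither group was called. In all, 16 of the 17 distinct libraries of exercised mice lay below the lowest Sedentary library for Cirbp. This count pools groups of different time and training, and the share of all genes that reached it was not computed.

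Rbm3 lay lower by a smaller margin, and no comparison met both thresholds. Sedentary libraries held 39.6, 38.0 and 44.8 TPM. Untrained 0 h libraries held 37.4 (the shared one), 33.1 and 38.5 TPM, and Trained 0 h libraries held 37.4, 32.9 and 40.1 TPM. Both 0 h groups overlapped Sedentary muscle. The log2 fold changes at 0 h were -0.17 (SE 0.12, adjusted p 0.418) and -0.15 (SE 0.12, adjusted p 0.434) by limma, and without the shared library they were -0.19 and -0.16. With any 1 library left out they lay between -0.21 and -0.10 in untrained and between -0.21 and -0.07 in trained muscle, the smallest without Sedentary replicate 3 and without Trained 0 h replicate 2.

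At 6 h Rbm3 held 35.9, 36.9 and 30.8 TPM in untrained and 32.3, 27.9 and 29.8 TPM in trained muscle, with no overlap with Sedentary muscle in either. The lowest group mean of all for Rbm3 was that of Trained 6 h muscle, 30.0 ± 2.20 TPM (SD, n = 3), compared with 40.8 ± 3.57 TPM (SD, n = 3) in Sedentary muscle. Its log2 fold change was -0.44 (SE 0.12, 95% interval -0.69 to -0.18) with an adjusted p of 0.0274 in limma, below the fold threshold. With any 1 library left out the adjusted p lay between 0.0389 and 0.101, under 0.05 in 2 of 6 cases. The untrained value was -0.24 (SE 0.12, adjusted p 0.259), or between -0.29 and -0.16 with any 1 library left out.

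At 72 h Rbm3 held 38.2, 37.7 and 35.5 TPM in untrained and 26.5, 32.4 and 38.7 TPM in trained muscle. The trained libraries ranged from the lowest of all libraries to a value within the Sedentary range. The log2 fold changes were -0.13 (SE 0.12, adjusted p 0.959) and -0.34 (SE 0.12, adjusted p 0.270) by limma. With any 1 library left out the untrained value lay between -0.18 and -0.06 (the latter without Sedentary replicate 3) and the trained one between -0.47 and -0.20 (the latter without Trained 72 h replicate 1), with no call. For Rbm3, 13 of the 17 distinct exercised libraries lay below the lowest Sedentary library, again with no share of all genes computed for such a pooled count.

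**Figure D1:**
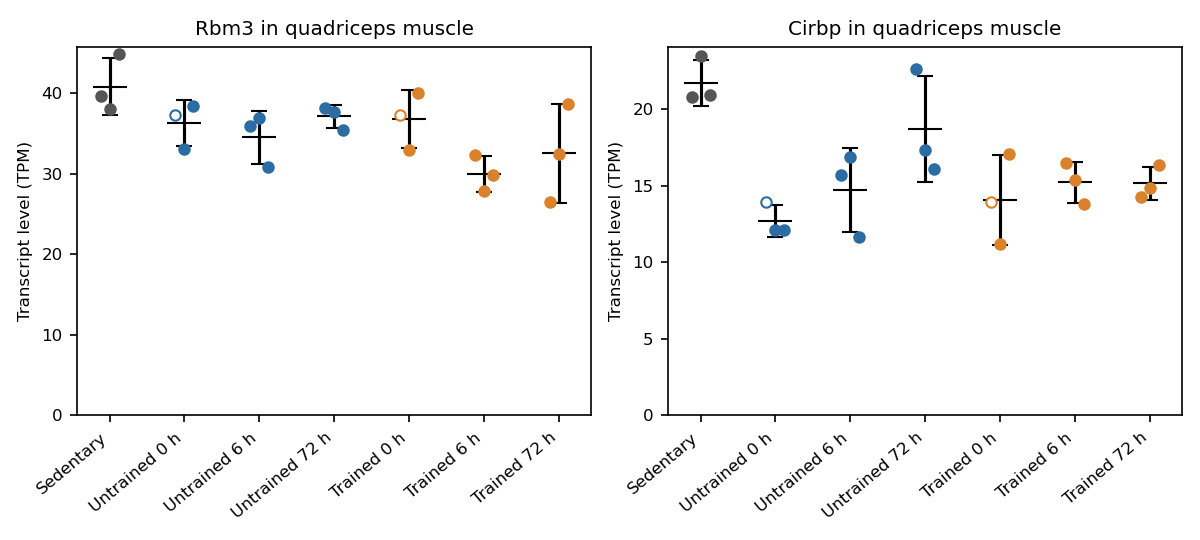
TPM of Rbm3 (left) and Cirbp (right) in each library of the 7 groups, with the mean and SD of 3 libraries as bars and the library shared by both 0 h groups as open circles. Sedentary libraries of Cirbp sit between 20.8 and 23.4 TPM, and 1 exercised library, Untrained 72 h replicate 1 at 22.6 TPM, reaches them.

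A group whose 3 libraries all lie below the Sedentary ones is not rare in these data. This held for 4.22% of tested genes at Untrained 0 h, 8.72% at Untrained 6 h, 3.16% at Untrained 72 h, 2.78% at Trained 0 h, 15.0% at Trained 6 h and 13.8% at Trained 72 h. Cirbp was among these genes in every comparison apart from Untrained 72 h, and Rbm3 at Untrained 6 h and Trained 6 h. By adjusted p alone, 0.973% and 0.685% of genes were lower at Untrained 0 h and Trained 0 h. At Untrained 0 h 2.83% of tested genes had a lower log2 fold change than Cirbp and 12.0% had a lower one than Rbm3.

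TPM of the median gene moved with the share taken by the mitochondrial genome. The median log2 fold change of all tested genes was 0.10 at Untrained 0 h and 0.13 at Trained 0 h, and within 0.05 of 0 in size at the other times. Relative to that median, the log2 fold change at 0 h was -0.86 and -0.76 for Cirbp and -0.27 and -0.28 for Rbm3. After scaling by the median of ratios between libraries, the Cirbp log2 fold changes at 0 h were -0.87 and -0.78 (adjusted p 0.00260 and 0.00690 in limma). Those of Rbm3 were -0.29 and -0.30 (adjusted p 0.186 and 0.167), with no call. All 0 h libraries of Rbm3 then lay below the Sedentary ones, as they did after the mitochondrial genome and the top 10 genes were left out. The share of all genes that did so was counted in TPM as deposited (4.22% at Untrained 0 h and 2.78% at Trained 0 h). It was not counted under these scalings, so nothing is read from this separation.

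**Figure D2:**
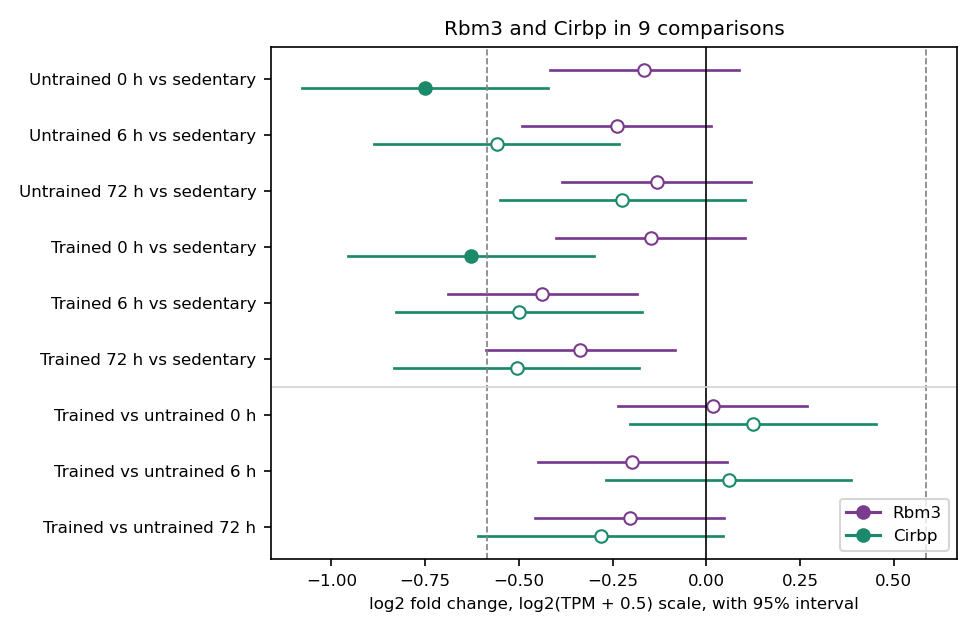
log2 fold changes of Rbm3 (purple) and Cirbp (green) with 95% intervals from the limma fit, for 6 comparisons with Sedentary muscle and 3 of trained with untrained muscle. Filled points passed both thresholds, dashed lines mark a 1.5-fold change in either direction, and the called values are Cirbp at Untrained 0 h (-0.75) and Trained 0 h (-0.63).

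Ranked by mean level, the order of the groups for Rbm3 was Sedentary (40.8 TPM), Untrained 72 h (37.1), Trained 0 h (36.8), Untrained 0 h (36.3), Untrained 6 h (34.5), Trained 72 h (32.5) and Trained 6 h (30.0). For Cirbp it was Sedentary (21.7 TPM), Untrained 72 h (18.7), Trained 6 h (15.2), Trained 72 h (15.1), Untrained 6 h (14.7), Trained 0 h (14.1) and Untrained 0 h (12.7). In both orders every group overlapped the next in its libraries, so no neighbours were set apart. The lowest group for Cirbp was an immediate one, and for Rbm3 it was the trained group at 6 h.

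No difference between trained and untrained muscle passed the test for either gene at any time. For Rbm3 the log2 difference, trained minus untrained, was 0.02 at 0 h (95% interval -0.24 to 0.27), -0.20 at 6 h (-0.45 to 0.05, adjusted p 0.404) and -0.20 at 72 h (-0.46 to 0.05, adjusted p 0.442). For Cirbp it was 0.12 at 0 h (-0.20 to 0.45), 0.06 at 6 h (-0.27 to 0.39, adjusted p 0.898) and -0.28 at 72 h (-0.61 to 0.05, adjusted p 0.412). The adjusted p by limma was 1 for both genes at 0 h, where both groups hold the shared library. In that comparison 0 of 11819 tested genes were called, and 0 again with the shared library left out. These intervals still hold differences of more than 0.25 log2 in size, so the data do not show equal levels.

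No step between time points passed the test for either gene. In untrained muscle the Cirbp difference was 0.19 log2 from 0 h to 6 h (adjusted p 0.449) and 0.34 log2 from 6 h to 72 h (95% interval 0.01 to 0.66, adjusted p 0.215). In trained muscle it was 0.13 log2 (adjusted p 0.580) and -0.01 log2 (adjusted p 0.994) over the same steps. For Rbm3 the step from 0 h to 6 h was -0.29 log2 in trained (95% interval -0.54 to -0.04, adjusted p 0.0870) and -0.07 log2 in untrained muscle (adjusted p 0.725). The difference of these steps between trained and untrained muscle was -0.21 log2 for Rbm3 (adjusted p 0.706) and, for the step of Cirbp from 6 h to 72 h, -0.34 log2 (adjusted p 0.640) by limma.

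The ratio of Rbm3 to Cirbp compares the genes within each library and does not depend on scaling. In Sedentary muscle the ratio was 1.90, 1.62 and 2.15. It was 2.68 (the shared library), 2.73 and 3.19 in Untrained 0 h, 2.68, 2.94 and 2.35 in Trained 0 h and 2.29, 2.19 and 2.65 in Untrained 6 h muscle. Every library of these groups lay above the Sedentary ones, at Untrained 6 h by a narrow margin (2.19 against 2.15). How often other gene pairs separate in this way was not computed, and both 0 h groups hold the shared library. Means were 1.89 ± 0.26 (SD, n = 3) in Sedentary and 2.87 ± 0.28 (SD, n = 3) in Untrained 0 h muscle, or 2.96 without the shared library. For these 3 groups a two-sided exact permutation test of the log2 ratio gave p = 0.1, the smallest that 3 against 3 libraries allow (adjusted over 6 comparisons, p = 0.2). The ratio had a mean of 1.98 in Trained 6 h, 2.02 in Untrained 72 h and 2.14 in Trained 72 h muscle, and each of these groups overlapped Sedentary muscle (exact permutation p between 0.4 and 0.6).

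Across the 20 distinct libraries the genes varied together, with a Pearson r of 0.54 (permutation p = 0.0139, adjusted over 5 relations p = 0.0693) and a Spearman rho of 0.60 (permutation p = 0.00672, adjusted p = 0.0336) on the log2 scale. Without the 2 libraries farthest from the median of Rbm3, r was 0.63. These permutations ignored the groups, so their p values also count shifts between groups that both genes share. Within groups, as deviations from group means in 19 libraries, r was 0.57, which was not tested. The libraries share their scaling to a fixed total, and r was 0.66 after median-of-ratios scaling and 0.70 without the mitochondrial genome and the top 10 genes.

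**Figure D3:**
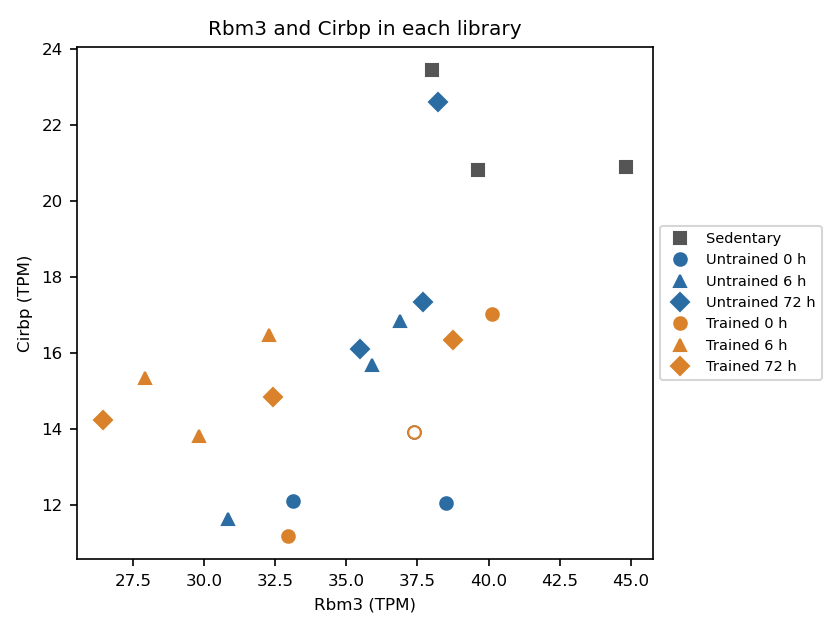
Cirbp against Rbm3 in TPM, a point for each library, with Sedentary in grey squares, untrained in blue and trained in orange (circles 0 h, triangles 6 h, diamonds 72 h) and the library shared by both 0 h groups as an open circle. Sedentary libraries lie at the upper right, 0 h libraries at 11.2 to 17.0 TPM of Cirbp, and r over 20 libraries was 0.54.

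Heat shock genes, which respond to warming in the direction opposite to the cold-inducible genes, were read in the same libraries. Of 21 tested genes 14 rose at Untrained 0 h with a median log2 fold change of 0.88 (all genes 0.10), 13 at Untrained 6 h with 1.08 (all genes 0.01), 14 at Trained 0 h with 0.81 (all genes 0.13) and 6 at Trained 6 h with 0.49 (all genes -0.01). None fell in these comparisons, and none was called at 72 h by limma. Among all genes 2.97%, 3.53%, 3.39% and 2.41% were called higher in the first 4 of these, and 0.00846% and 0.0592% at Untrained 72 h and Trained 72 h. Hspa1b, an inducible HSP70 chaperone, went from 0.589 TPM in Sedentary to 102 TPM in Untrained 0 h, 136 TPM in Untrained 6 h, 63.3 TPM in Trained 0 h and 4.23 TPM in Trained 6 h muscle. With the shared library left out the counts were 12 of 21 in each 0 h group. Of all 11819 tested genes 295 and 367 were then called higher at Untrained 0 h and Trained 0 h. With median-of-ratios scaling the counts were 12 and 10, next to 356 and 342 of 11812 tested genes called in either direction.

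Trained and untrained muscle were also compared directly in the heat shock genes at 6 h. Of the 21 heat shock genes 10 were lower in trained muscle, with a median of -0.59 log2, in a comparison where 1.46% of genes were called lower. Hspa1b differed by -5.01 log2 (adjusted p 4.87e-06). The step from 0 h to 6 h was lower in trained muscle for 5 of these genes (0.533% of all genes) and that from 6 h to 72 h higher for 4 (0.271% of all genes). Cirbp stood at means of 14.7 and 15.2 TPM in these groups and Rbm3 at 34.5 and 30.0 TPM.

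For the mean log2 level of the heat shock genes the libraries were split by group, and no correlation over all of them is given. This mean lay between 4.25 and 4.60 in the 9 Sedentary and 72 h libraries and between 4.88 and 6.40 in the 11 distinct libraries at 0 h and 6 h. These sets are not even clusters. Trained 6 h libraries, at 4.88 to 5.28, lay between the first set and the rest of the second, which started at 5.69. Within the first set r was 0.08 for Cirbp (exact permutation p = 0.828) and 0.13 for Rbm3 (exact permutation p = 0.766). Within the second it was -0.39 for Cirbp (permutation p = 0.241) and 0.56 for Rbm3 (permutation p = 0.0784), the latter -0.06 without the 2 Trained 6 h libraries farthest from the median. Spearman's rho in the second set was -0.34 and 0.33 (permutation p = 0.313 and 0.331), and in the first 0.13 and -0.17 (exact permutation p = 0.744 and 0.678). The adjusted p over the 5 relations was 0.196 or higher for all of these.

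**Figure D4:**
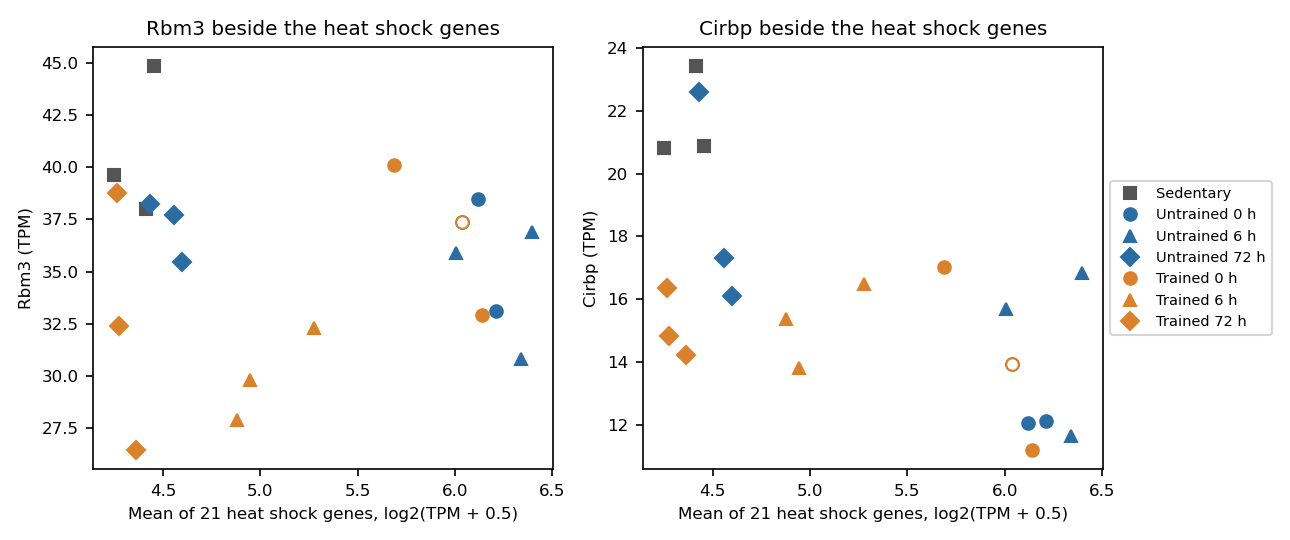
TPM of Rbm3 (left) and Cirbp (right) against the mean log2(TPM + 0.5) of 21 heat shock genes, a point for each library, with colours and shapes for groups as in the legend and the library shared by both 0 h groups as an open circle. Trained 72 h libraries hold 14.2 to 16.3 TPM of Cirbp at a heat shock mean of no more than 4.36, and Sedentary libraries 20.8 to 23.4 TPM at no more than 4.45. Cirbp was not called at Trained 72 h (adjusted p 0.184 in limma), where 13.8% of tested genes lay wholly below Sedentary muscle.

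Genes that share the cold-shock name with the pair were read in the same fit. Ybx1, Ybx2, Ybx3 and Carhsp1 encode proteins that bind RNA through a cold-shock domain, and none of these 4 genes was called in any comparison with Sedentary muscle. Ybx1 stood at 228 ± 13.8 TPM in Sedentary and 240 ± 20.1 TPM in Untrained 0 h muscle (SD, n = 3). Carhsp1 had the largest log2 fold change of the 4, 0.44 at Trained 0 h (adjusted p 0.0156), below the fold threshold.

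Of 4 transcripts known to be bound by the pair that were read here, none was called either. Other targets were not read as a list. Rtn3, whose translation RBM3 promotes, stood at 7.66 TPM in Sedentary and 9.54 TPM in Trained 0 h muscle (log2 fold change 0.30, adjusted p 0.0340). Clock, Txn1 and Rpa2 are known targets of CIRBP. Clock had log2 fold changes of -0.41 at Untrained 6 h (adjusted p 0.0873) and -0.48 at Trained 6 h (adjusted p 0.0421), and Rpa2 had -0.35 (adjusted p 0.0553) and -0.43 (adjusted p 0.0187) in the same comparisons, all under the fold threshold. Txn1, the redox protein thioredoxin, lay between -0.15 and 0.26 log2 of Sedentary muscle in every group.

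Splicing of Cirbp changes with temperature through the CDC2-like kinases and their SR protein substrates. None of 9 tested genes of this control was called in any group (Clk1, Clk2, Clk3, Clk4, Hnrnph1, Srsf2, Srsf5, Srsf7 and the promoter factor Sp1). Srsf7 came closest, with 9.62 TPM in Sedentary, 14.3 TPM in Untrained 0 h and 14.2 TPM in Trained 0 h muscle and log2 fold changes of 0.55 (adjusted p 0.000238) and 0.54 (adjusted p 0.000250). Clk1 was at 0.39 log2 at Trained 0 h (adjusted p 0.0144). Srsf5 pointed the other way, with 55.9 TPM in Sedentary and 42.4 TPM in Untrained 0 h muscle (log2 fold change -0.39, adjusted p 0.0692). TPM per gene sums the transcripts, so isoform choice was not measured here.

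Of 9 stress granule genes (G3bp1, G3bp2, Tia1, Tial1, Caprin1, Pabpc1, Atxn2, Usp10, Fmr1), Pabpc1, the poly(A)-binding protein, was called higher at Untrained 6 h (log2 fold change 0.59, adjusted p 0.0151), where 3.53% of all genes were called higher, and lower at Untrained 72 h than at 6 h (-0.69, adjusted p 0.00602, with 2.83% of all genes lower). No other member was called in a comparison with Sedentary muscle. Of 33 other tested genes named RBM, which share the RNA recognition motif, 2 rose at Trained 0 h, Rbm12b1 (0.66, adjusted p 0.0178) and Rbm12b2 (0.64, adjusted p 0.0130), 0 fell, and none was called in the other 5 comparisons with Sedentary muscle. Of all genes, 3.39% rose at Trained 0 h. With median-of-ratios scaling 0 of the 33 were called at Trained 0 h, next to 342 of 11812 tested genes called in either direction. The list medians at 0 h were 0.13 and 0.16 log2, next to 0.10 and 0.13 for all genes.

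The molecular clock is included because CIRBP is known to steady Clock transcripts and because Rbm3 and Cirbp follow the daily rhythm of body temperature. Of 11 tested clock genes, Per1 and Ciart rose at Untrained 0 h, where 2.97% of all genes rose. At Trained 0 h Per1, Ciart and Per2 rose and Nr1d1 fell, next to 3.39% of all genes higher and 0.347% lower. Per1, Per2 and Cry2 rose and Nr1d1 fell at Untrained 6 h (3.53% and 0.888% of all genes), and Per1 and Cry2 rose and Nr1d1 fell at Trained 6 h (2.41% and 1.44%). At Trained 72 h Per1 rose and Arntl fell, next to 0.0592% and 0.110% of all genes. Per1, a repressor of the clock that also responds to stress hormones, went from 2.01 TPM in Sedentary to 17.5 TPM in Untrained 0 h and 8.14 TPM in Trained 72 h muscle. Whether groups were sacrificed at different clock times was not given, and its part in the Cirbp level was not tested.

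Genes that tracked each member most closely over the 20 distinct libraries were ranked by Pearson r on the log2 scale among 9677 protein-coding nuclear genes. This is a description with no test, since these libraries share groups and scaling. For Cirbp the most alike were Arglu1 (r = 0.85), C130074G19Rik (0.82), Zc2hc1a (0.80), Hpgd (0.78) and Zfp386 (0.77). Arglu1 encodes a splicing and coactivator protein rich in arginine and glutamate, and Hpgd the enzyme that inactivates prostaglandins. The most opposed were Picalm (-0.84), Acsl3 (-0.83), Plxna2 (-0.82), Atoh8 (-0.81) and Pakap (-0.79). Picalm, a clathrin assembly protein, went from 19.0 TPM in Sedentary to 31.4 TPM in Untrained 0 h muscle. Rbm3 ranked 108th for likeness to Cirbp.

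For Rbm3 the most alike were Them6 (r = 0.83), Gmpr (0.83), Pts (0.79), BC025920 (0.79) and Lrrc39 (0.79), and Cirbp ranked 592nd. Gmpr encodes GMP reductase of purine salvage and stood at 80.3 TPM in Sedentary and 58.1 TPM in Trained 6 h muscle. Lrrc39 encodes a protein of the sarcomere's M band. The most opposed were Slc4a3 (-0.69), Adgre5 (-0.69), Adarb1 (-0.68), Ppil2 (-0.67) and Acsl3 (-0.67). Acsl3, which activates long-chain fatty acids, stood in the opposed set of both members, at 5.13 TPM in Sedentary and 9.02 TPM in Trained 6 h muscle.

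Bulk muscle mixes cell types, and fewer cells of a type cannot be told apart from less RNA per cell. Summed levels of 6 macrophage markers lay between 32.3 and 35.6 TPM in Sedentary, 39.9 and 44.8 TPM in Untrained 0 h, 39.7 and 40.9 TPM in Trained 0 h and 47.1 and 51.3 TPM in Untrained 72 h libraries. These 3 exercised groups lay above Sedentary muscle, while Untrained 6 h (28.3 to 58.5 TPM), Trained 6 h (27.4 to 39.7 TPM) and Trained 72 h (33.9 to 38.7 TPM) overlapped it. The share of all genes wholly above Sedentary muscle was not counted. Nothing is read from a marker sum set apart from Sedentary muscle, here or for the cell types below. Of 5 tested macrophage markers, Cd68 and Csf1r were called higher at Untrained 6 h (log2 fold changes 1.62 and 0.61) and Cd68 at Untrained 72 h (1.54, adjusted p 0.0120). Of all genes 3.53% and 0.00846% were called higher in these comparisons.

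Slow-fibre markers were summed in each library in the same way. The sum of 5 of them lay between 338 and 700 TPM in Sedentary libraries. It lay wholly below that in Untrained 0 h (158 to 270 TPM), Untrained 6 h (160 to 263 TPM), Untrained 72 h (216 to 323 TPM) and Trained 72 h libraries (186 to 294 TPM). Of single tested genes, 4.22%, 8.72%, 3.16% and 13.8% did so in these groups, in this order. The sum overlapped Sedentary muscle in Trained 0 h (192 to 467 TPM) and Trained 6 h libraries (274 to 890 TPM). Myl2, the slow myosin light chain, was the single member called against Sedentary muscle, lower at Untrained 6 h (log2 fold change -1.28, adjusted p 0.0468), next to 0.888% of all genes.

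The sum of 5 endothelial markers overlapped Sedentary muscle in every group, at 43.2 to 53.3 TPM in Sedentary, 36.7 to 47.1 TPM in Untrained 0 h and 39.6 to 43.2 TPM in Trained 0 h libraries. Kdr, a receptor for vascular endothelial growth factor, was the single one of these 5 called against Sedentary muscle. It was lower at Untrained 0 h (log2 fold change -0.66, adjusted p 0.0210) and Trained 0 h (-0.59, adjusted p 0.0326), next to 0.618% and 0.347% of all genes. The medians of the 5 markers were -0.18 and -0.15 log2, and those of all genes 0.10 and 0.13. Red blood cell markers (5) summed to 322 to 450 TPM in Sedentary and 296 to 306 TPM in Untrained 6 h libraries, the only group below Sedentary muscle for them. Of single tested genes, 8.72% lay wholly below Sedentary muscle in that group. The sum of 4 fibro-adipogenic markers and that of 3 adipocyte markers lay above Sedentary muscle in Trained 72 h libraries alone. Among the 4 fibro-adipogenic markers Col1a1 was called lower at Trained 6 h (-0.91, adjusted p 0.0480), next to 1.44% of all genes. Neutrophil markers stayed at or below 1.56 TPM in sum and satellite cell markers at or below 0.965 TPM. The part of these cells in the level of Cirbp and Rbm3 was not tested.

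Rbm3-ps, a pseudogene of Rbm3, was listed at 0 in all but 2 libraries (0.787 and 0.380 TPM), and reads shared with it could be split between the copies. Rbm3os had log2 fold changes between -0.37 and -0.04 against Sedentary muscle, with an adjusted p of 0.302 or higher.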

How the data were processed

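Quadriceps RNA of 7 groups of 3 mice was sequenced in 21 libraries. According to the methods and the submitters' processing notes, the authors aligned paired-end reads to GRCm39 with STAR 2.7.9 and quantified them with salmon 1.5.0. The deposited TPM values were used as given, and 0 columns were left unassigned. TPM keeps no read depth, so no counting interval can be given. Values were transformed to log2(TPM + 0.5). Genes averaging 1 TPM or more (11819) entered a limma fit (version 3.58.1, R 4.3.3) of group means, with a variance trend and 14 residual degrees of freedom. These count the shared library in both 0 h groups, which bears on the spread used in every comparison. P values were adjusted (Benjamini-Hochberg) over all tested genes in each of 15 comparisons. Calls required an adjusted p under 0.05 and a fold of 1.5 or more either way. The fit was tested on simulated data. Ratios and relations were tested with exact permutation tests, or 100000 permutations for 10 or more libraries. For relations, libraries were permuted without regard to group. Python 3.11.15, scipy 1.17.1 and matplotlib 3.10.9 were used. Named genes were the pair, the 5 most and 5 least correlated protein-coding genes for each, members of lists of up to 10 genes, and up to 4 called members of longer lists. A listed gene is not reported here. For the clock list, all called members were named after their values were seen. The pair and the lists were chosen with earlier results of these data known. Relations with the heat shock genes were split by group after the values were seen. Nothing in the sources used here states whether libraries of a group were processed together, and p values measure the spread between mice. Alternatives covered pseudocounts, filters, scalings, model terms, the shared library and each library left out.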

Additional observations from a re-analysis of the deposited data

Results flagged for a closer look

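Trained and untrained muscle differed in heat shock and clock genes, by a direct test in limma. No such difference passed the test for Rbm3 or Cirbp. At 6 h 10 of 21 heat shock genes were lower in trained muscle. The step from 0 h to 6 h differed for 5 of them (Hspa1b, Hspa1a, Dnajb1, Hspb1, Cryab), each with a lower value in trained muscle, against 0.533% of all genes called in that direction. The step from 6 h to 72 h differed for 4 of them (Hspa1b, Hspa1a, Dnajb1, Dnaja1) in the other direction, against 0.271% of all genes. The step from 0 h uses the library shared by both groups. Of 11 clock genes 1 was lower in trained muscle at 6 h (Nr1d1, log2 difference -1.08, adjusted p 0.00108), next to 1.46% of all genes. At 72 h 3 clock genes differed. Ciart (2.08) and Per1 (1.76) were higher and Arntl (-1.51) lower, next to 0.0592% and 0.186% of all genes. The step from 6 h to 72 h was higher for 2 clock genes, Ciart and Per1, next to 0.271% of all genes.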

How the results depend on the processing

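Cirbp stayed called at Untrained 0 h in all 10 settings with every library (adjusted p 0.00149 to 0.0140 in limma) and with each library left out (log2 fold change -0.82 to -0.70). At Trained 0 h it lost its call in a model of only the groups compared (-0.63, adjusted p 0.120) and without the shared library (-0.63), and lay between -0.77 and -0.48 with each library left out. At Untrained 6 h it was called after median-of-ratios scaling (-0.59), without the mitochondrial genome and top 10 genes (-0.64) and after quantile normalization (-0.62), and lay between -0.66 and -0.40 with each library left out. Every comparison of either gene with Sedentary muscle kept its sign under the alternatives run. Values near 0 changed sign without a call. Under median-of-ratios, rescaled and quantile values, in this order, Rbm3 trained minus untrained at 0 h was -0.0147, -0.000828 and -0.0109 (-0.0476 to 0.0935 with each library left out). Rbm3 Untrained 6 h minus 0 h was 0.0216, 0.0275 and 0.00155 (-0.137 to 0.00554). Cirbp Trained 72 h minus 6 h was 0.0283, 0.0583 and 0.0766 (-0.0716 to 0.0517). The Cirbp step from 0 h to 6 h was 0.00514, 0.0427 and 0.0224 (-0.219 to 0.0800), and the Rbm3 step from 6 h to 72 h 0.0448, 0.0170 and 0.0119 (-0.139 to 0.132). Leave-outs also turned Cirbp trained minus untrained at 0 h (-0.0207 to 0.271) and 6 h (-0.0955 to 0.162), Cirbp Trained 6 h minus 0 h (-0.0209 to 0.271) and Rbm3 Trained 72 h minus 6 h (-0.0319 to 0.239). Correlations with the heat shock mean in Sedentary and 72 h libraries turned to -0.304 and -0.376 for Rbm3 and -0.148 and -0.238 for Cirbp under the first 2 scalings, and that of Rbm3 at 0 h and 6 h to -0.0574 without the 2 farthest libraries. The cause of these changes was not tested.

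Libraries with the same replicate number did not deviate together (median r 0.02 over 62 pairs, range -0.12 to 0.13, against -0.01 in 126 other pairs). No pairing by number was seen in these values. Whether the numbers mark mice handled together is not stated in the sources used here. With a replicate block Cirbp was at -0.75 (adjusted p 0.00937) at Untrained 0 h and -0.63 (0.0249) at Trained 0 h, and no call of either gene changed. With 3 libraries a group, small differences cannot be resolved, and the depth behind TPM is unknown.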
